A study of Mus musculus with 8 samples.

Results

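The cells described here are the 323 CD4+ effector memory T cells (Tem) that were not stimulated. They are the cells that the deposited cell annotation places in the CD4 class and in the Tem subset, in the 4 unstimulated libraries of the series. They make up 323 of 4315 unstimulated CD4+ cells, of 6014 unstimulated T cells, and of 12846 T cells in all. The annotation holds 1 Tem cluster among these CD4+ cells, and their UMIs were summed per library and set beside those of the 3665 unstimulated CD4+ naive cells of the same libraries. The replicates 1 and 2 of the WT libraries gave 86 and 79 Tem cells, and those of the libraries labelled SDHA-KO gave 67 and 91.

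The study asked how T cells fare without SDHA, the catalytic subunit of mitochondrial complex II, which links the TCA cycle to the electron transport chain. T cells were purified with magnets from mouse spleens, kept in culture without antibody, freed of dead cells, and captured with 10x Genomics 3′ chemistry, which tags each captured mRNA with a unique molecular identifier (UMI). The 2 genotypes were WT and Sdha fl/fl CD4-Cre (SDHA-KO), and the mice were 8 to 12 weeks old. The Cre recombinase of the SDHA-KO mice is driven by the CD4 promoter, which is active from the double-positive thymocyte stage on, so the gene is targeted in CD4+ and CD8+ T cells alike. The labels call the controls only WT and do not say whether they carried the floxed allele. They also do not say whether the 2 replicates of a group came from separate mice, so p values here measure the spread between these libraries only.

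CD4+ effector memory cells are antigen-experienced helper T cells that have lost lymph node homing receptors such as CCR7 and have gained adhesion molecules and chemokine receptors for entry into tissues. On a new encounter with antigen they release cytokines quickly. Helper lineages such as Th1, Th2, Th17, and follicular helper (Tfh) cells are defined by their transcription factors, receptors, and cytokines, and a memory pool can hold several of them.

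Sums over the Tem cells held 645583, 689423, 785254, and 915338 UMIs (WT 1, WT 2, SDHA-KO 1, and SDHA-KO 2), with medians of 6742.5 to 9804 UMIs and 2221 to 2973 genes per cell. Median mitochondrial shares were 3.98 to 4.23% of UMIs, and 0 barcodes were shared between the Tem cells of the 4 libraries. Levels are UMIs of a gene per 1000000 UMIs of the sum (CPM), scaled with TMM over the Tem and naive sums, and a log2 fold change is always SDHA-KO minus WT, ± SE, with n = 2 libraries per genotype. Adjusted p values come from edgeR's quasi-likelihood test with Benjamini-Hochberg adjustment over all genes tested, and below 0.05 a gene was called. Replicates differed by somewhat more than sampling noise, the ratio of chi-square to its degrees of freedom being 1.55 in WT and 1.87 in the libraries labelled SDHA-KO. In naive cells it was 1.61 in WT and 6.52 under the SDHA-KO label, where the 2 libraries stood further apart. Because the values are sums over cells, fewer expressing cells and less RNA per cell cannot be told apart in them, and shares of cells are given separately where they bear on a gene.

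The targeted gene, Sdha (chr13:74322254-74350280 in GRCm38, minus strand), stood in Tem cells at 92.3 and 76.1 CPM in WT against 72.2 and 68.2 CPM in the libraries labelled SDHA-KO. The log2 fold change was -0.27 ± 0.21 (adjusted p = 0.578), so no decrease was called. In naive cells of the same libraries, Sdha stood at 104 and 104 CPM in WT against 47.5 and 45.2 CPM under the SDHA-KO label, a fall of 1.18 on the log2 scale (adjusted p = 8.94e-08). The effect differed between the subsets by 0.91 ± 0.22 (Tem minus naive, adjusted p = 0.015), a call that was lost with DESeq2 and without WT replicate 2, where the highest adjusted p was 0.277. An Sdha UMI was found in 45.3 and 50.6% of Tem cells in the WT libraries and 55.2 and 49.5% of those labelled SDHA-KO. In naive cells, the shares were 46.8 and 49.8% in WT and 30.2 and 27.6% under the SDHA-KO label. These shares were not thinned for depth, and the Tem cells labelled SDHA-KO were deeper. Their medians were 9804 and 8381 UMIs per cell, against 6742.5 and 7855 in WT Tem cells. Reads from the 3′ end cannot tell a recombined Sdha transcript from an intact one, and because Sdha did not mark the label in these cells, the groups are named by their label throughout and every direction below is that of the labelled libraries.

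Cd4 itself, the coreceptor for MHC class II, gave the reverse picture. In Tem cells it stood at 196 and 202 CPM in WT against 230.0 and 208 CPM in the libraries labelled SDHA-KO (0.13 ± 0.14, adjusted p = 0.735), and all 4 values lay within a narrow range. Naive cells held Cd4 at 172 and 172 CPM in WT against 660.2 and 743 CPM under the SDHA-KO label (2.02, adjusted p = 1.35e-11). The difference between the subsets was -1.89 ± 0.16 (adjusted p = 1.29e-09). For both genes, the difference between the labels was thus larger in naive cells than in Tem cells of the same libraries.

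**Figure D1:**
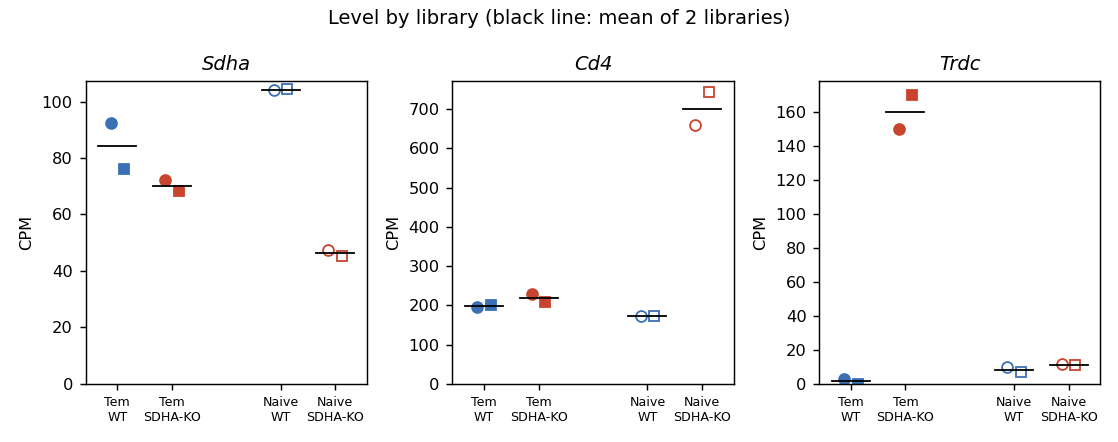
Levels of Sdha, Cd4, and Trdc in TMM-scaled CPM, 1 point per library, for unstimulated CD4+ Tem and naive cells from WT libraries and libraries labelled SDHA-KO. Black lines are means of 2 libraries. The labels are widely apart for Sdha and Cd4 in naive cells but not in Tem cells, and Trdc stands at 150.0 and 169.5 CPM in Tem cells labelled SDHA-KO against 2.93 and 0 CPM in WT.

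The label of effector memory was checked against its markers. Cd44, an adhesion receptor for hyaluronan that rises after antigen encounter, stood at 142 and 133 CPM in WT Tem cells and at 191 and 169.5 CPM in those labelled SDHA-KO, against 11.7 to 20.4 CPM in naive cells. S100a4, a calcium-binding protein of memory cells, stood at 827 and 851 CPM and at 2297 and 1591 CPM, against 0.618 to 1.30 CPM in naive cells. Cxcr3, the receptor that guides effector cells to sites of interferon, stood at 201 and 131 CPM and at 127 and 129.8 CPM, against 0.336 to 2.04 CPM. These 3 markers were thus higher in Tem than in naive cells of all 4 libraries, whereas Cd4 was shared by both subsets.

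The genes by which the study named its subsets pointed the same way. Itga4, the integrin chain that binds VCAM-1, stood at 390.0 to 672 CPM in the 4 Tem sums and at 158 to 200.3 CPM in naive cells. Ccr7, the homing receptor for lymph nodes, stood at 33.1 to 70.6 CPM against 247 to 266 CPM. It was lower in every Tem sum than in any naive sum but was not absent. Tcf7, a transcription factor of naive and memory precursors, was at 188 to 264 CPM against 356 to 395 CPM. Il7r, the survival receptor of resting T cells, overlapped between the subsets, with 289 to 517 CPM in Tem and 393 to 510.0 CPM in naive cells. Foxp3, the defining factor of regulatory T cells, was at 6.67 to 12.3 CPM and had UMIs in 4.40 to 5.97% of Tem cells and 0.627 to 1.72% of naive cells.

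**Figure D2:**
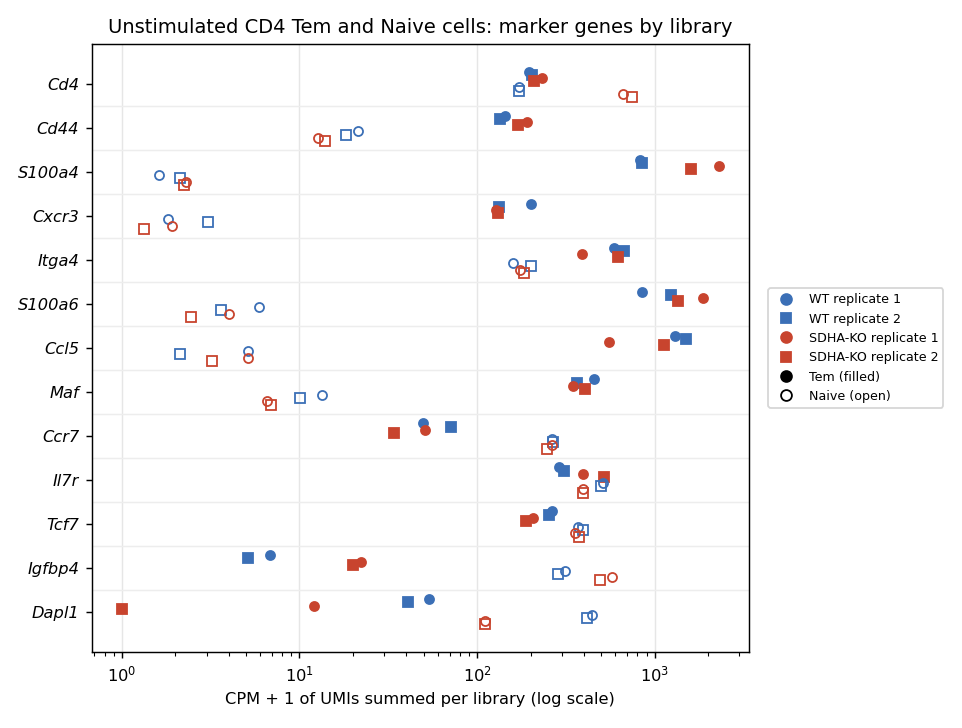
Levels of 13 genes, as TMM-scaled CPM with 1 added on a log axis, in the 4 Tem sums (filled) and 4 naive sums (open), 1 point per library. Cd44, S100a4, and Cxcr3 lie higher and Ccr7 lower in every Tem sum than in any naive sum.

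The difference between Tem and naive cells is given as a description without a test, because both are clusters of the same cells. Values are log2 ratios of Tem over naive CPM within a library, with 1 CPM added, as mean ± SD over 4 libraries. Among 2947 genes with at least 50 CPM in the higher subset, 192 (6.52%) were 2-fold or more higher in Tem cells and 101 (3.43%) were 2-fold or more lower, with the 4 values of 1 subset apart from those of the other. The 4 values lay apart, whatever the size, for 1246 genes (42.3%). Without TMM, which evens out differences in RNA composition, 299 genes were higher and 48 lower.

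S100 proteins and trafficking genes led the Tem side. S100a4 had a log2 ratio of 9.27 ± 0.57 and its neighbour S100a6 of 8.39 ± 0.87, with S100a6 at 847 to 1869 CPM in Tem and 1.45 to 4.94 CPM in naive cells. Both lie on chromosome 3 and share the plus strand. Their promoters are printed because these 2 genes gave the largest ratios of all 2947 genes and both rose under the SDHA-KO label. The letters are those of RefSeq for GRCm38.p6, from 250 bases before to 50 after each start site (S100a4, chr3:90603520-90603819 and S100a6, chr3:90612644-90612943, plus strand, 5′ to 3′), and capitals mark the RUNX letters TGTGGT or, on the other strand, ACCACA.
S100a4: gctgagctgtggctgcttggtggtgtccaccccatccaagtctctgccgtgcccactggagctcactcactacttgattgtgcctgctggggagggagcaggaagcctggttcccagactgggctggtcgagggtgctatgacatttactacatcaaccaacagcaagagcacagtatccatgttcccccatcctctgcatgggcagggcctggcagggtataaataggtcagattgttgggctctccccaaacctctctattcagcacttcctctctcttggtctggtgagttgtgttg
S100a6: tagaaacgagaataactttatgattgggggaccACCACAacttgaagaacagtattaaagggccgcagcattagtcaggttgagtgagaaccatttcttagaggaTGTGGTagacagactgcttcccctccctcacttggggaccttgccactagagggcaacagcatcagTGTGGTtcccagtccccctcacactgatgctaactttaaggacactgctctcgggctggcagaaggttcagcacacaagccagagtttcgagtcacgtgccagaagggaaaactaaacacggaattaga
The S100a6 window held 3 RUNX matches, and in the S100a4 window 0 were found. Neither window held the AP-1 letters TGANTCA, which read as the same motif on both strands. Of 32851 promoters of the same length, 16.8% held the RUNX letters and 7.81% the AP-1 letters. A match describes the letters only.

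Chemokine and cytokine genes followed. Ccl5, a chemokine stored by memory cells, had a log2 ratio of 8.16 ± 1.14 and stood at 1295 and 1504 CPM in WT Tem cells and at 549 and 1127 CPM under the SDHA-KO label. Its UMIs came from few cells, since the 5 richest cells of each library held 55.4 to 90.9% of them. Ifng, the signature Th1 cytokine, had a ratio of 6.03 ± 1.30, but in WT replicate 2 a single cell held 148 of its 161 UMIs. The chemokine receptors Cxcr3 (6.23), Ccr2 (5.89), and Cxcr6 (5.53) were among the highest ratios, as was the granule protein gene Nkg7 (5.97).

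The other genes that led the Tem side were Myo1f, a motor protein of migrating leukocytes (5.61), Maf, a transcription factor of several helper lineages (5.47), Osbpl3, a lipid-binding protein (5.42), and Gna15, a G protein alpha subunit (5.28). The lowest Tem value of these 4 genes was 45.7 CPM, and their highest naive value was 12.4 CPM.

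On the naive side, Igfbp4, which binds insulin-like growth factors, stood at 4.15 to 21.1 CPM in Tem and 284 to 572 CPM in naive cells (-5.15 ± 0.58). Ly6c1, a surface antigen, had a log2 ratio of -4.32 ± 0.84 and Dapl1 of -4.09 ± 1.80. The other genes furthest below the naive level were Pdlim4 (-3.42), St8sia6 (-3.18), Atp1b1 (-3.14), Itm2a (-2.86), and Ifngr2, a chain of the interferon-γ receptor (-2.61). These 8 were chosen among genes with every Tem value below every naive value, so that separation was set by the rule.

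Gene lists showed the same division. Of 17 naive and quiescence genes above 50 CPM, 11 were 2-fold or more lower in Tem cells and 0 higher, with a median log2 ratio of -1.99, beside -0.01 over all 2947 genes. The S100, annexin, and cytoskeleton list had 13 of 17 genes higher (median 2.12), the Th1 list 6 of 7 (3.63), and the Tfh list 4 of 6 (1.57). For regulatory T cell genes, 4 of 4 above 50 CPM were higher, namely Ikzf2, Ctla4, Tnfrsf18, and Tnfrsf4, all of which activated helper T cells can also express, and Foxp3 stayed at the low level given above. Of the Th2 list, Gata3 alone passed 50 CPM (1.19), while Il5 and Il13 were at 0 UMIs in all 4 sums. Of the metabolic lists, 0 of 9 glycolysis genes and 0 of 34 nuclear complex I genes differed 2-fold with separate values. Among 13 mitochondrially encoded genes, 0 did. Over all 2947 genes, 6.52% were higher and 3.43% lower by this rule, so 0 in the lists of 9 and 13 genes is near that share.

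Within Tem cells, 560 of 7148 genes tested (7.83%) were called between the genotypes, 270 (3.78%) higher and 290 (4.06%) lower under the SDHA-KO label. At least a 2-fold change was seen for 166 of the higher and 83 of the lower genes. Both libraries of one label lay on one side of both others for 3296 genes (46.1%), so separation alone is common here. With total UMIs in place of TMM, the median of all genes moved to 0.14 on the log2 scale, and 418 of 587 called genes (71.2%, against 48.2%) were higher. DESeq2 called 202 genes, 78 of them higher. In the lists below, a gene with few UMIs could pass the filter through the label where it was high alone. Counts over tested members thus describe those members and not the whole list. They stand beside 3.78% of all genes called higher and 4.06% called lower.

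**Figure D3:**
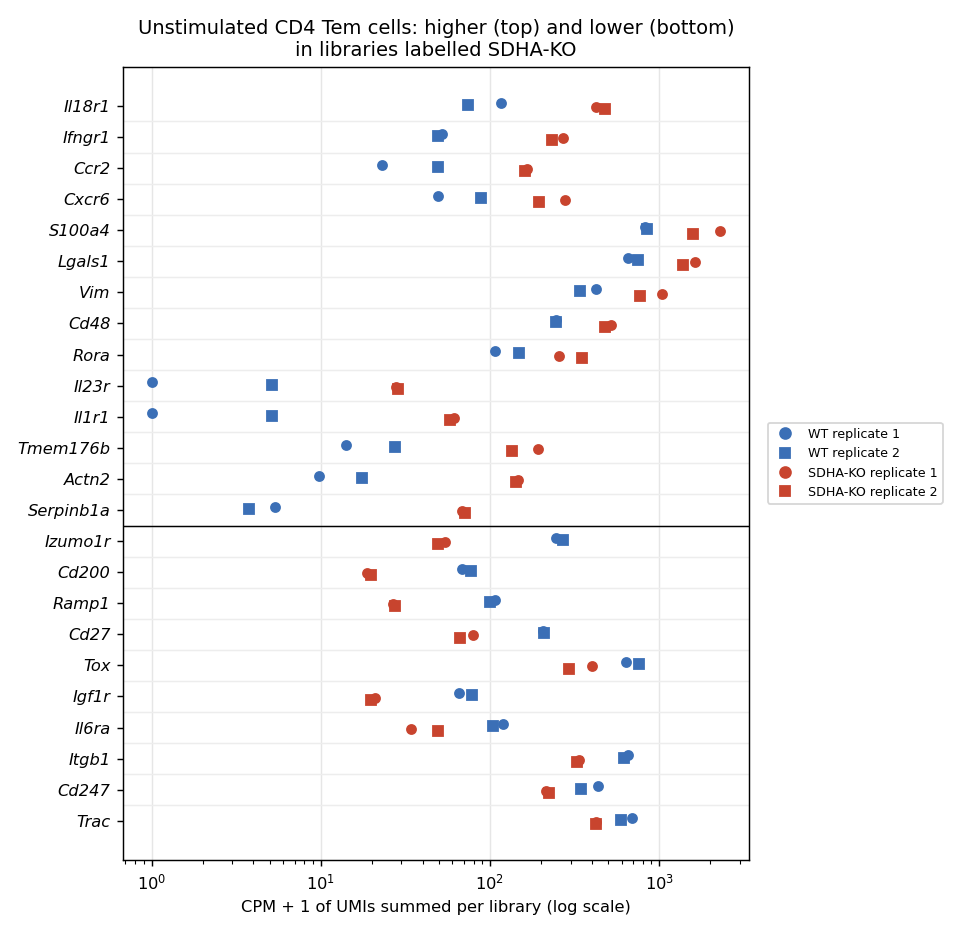
Levels in CD4+ Tem cells of 14 genes called higher (top) and 10 called lower (bottom) under the SDHA-KO label, as TMM-scaled CPM with 1 added on a log axis, 1 point per library. The 24 genes were picked among those called. For all of them, both libraries labelled SDHA-KO lie on the same side of both WT libraries, as they do for 46.1% of the 7148 genes tested.

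The smallest p value was that of Trdc (chr14:54142851-54148868 in GRCm38, plus strand), the constant region of the T cell receptor δ chain, which lies in the same locus as the α chain constant region Trac. It had 2 UMIs in WT Tem cells and 314 in those labelled SDHA-KO, at 2.93 and 0 CPM and at 150.0 and 169.5 CPM, a ratio of 113 (95% counting interval, 31.0 to 935), with adjusted p = 4.87e-13. A Trdc UMI was found in 1.16 and 0% of Tem cells in the WT libraries and 46.3 and 41.8% of those labelled SDHA-KO, where 0 of 79 cells allows a share of up to 3.80%. With each cell thinned to 4000 UMIs, it was found in 1.205 and 0% of Tem cells in the WT libraries and 32.8 and 34.1% of those labelled SDHA-KO. In naive cells, which had median depths of 7102 to 8564.5 UMIs, 3.14 to 4.93% held one, and 1.91 to 2.94% after thinning. CD8+ central memory cells (Tcm), which should lack the gene as well, had no Trdc UMI in 50 of 55 and 47 of 54 WT cells and in 20 of 69 and 18 of 51 cells labelled SDHA-KO. The presence of Trdc was thus not confined to the CD4+ Tem cells.

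Cells with Trdc were examined for the chains of conventional T cells. Of the 31 and 38 such Tem cells in the libraries labelled SDHA-KO, 28 and 38 also held Trac and a β chain constant region, and 24 and 31 held Cd4. Other γδ genes were low or uneven. Tcrg-C1 stood at 4.40 and 8.30 CPM in WT against 37.8 and 6.63 CPM under the SDHA-KO label, Tcrg-C2 at 8.79 and 12.5 CPM and at 50.0 and 2.84 CPM, and Tcrg-V6 at 0 in all 4 sums. The 7 genes of the γδ list summed to 29.3 and 34.6 CPM in WT and to 284 and 206 CPM under the label, of which Trdc made the larger part in both. Of the 7 list genes, only 2 passed the filter and were tested, and Trdc alone was called. More were called higher without SDHA-KO replicate 2 or without WT replicate 2. Cd163l1, a scavenger receptor gene of γδ T cells that was picked after its values were seen, was at 0 in both WT sums and at 46.7 and 13.3 CPM under the label (adjusted p = 3.78e-05). Without the cells that held Trdc, 468 genes were called in Tem cells, 410 of them shared with the 560.

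Markers of other cell types were checked as well. Of the 2 CD8 genes, 0 were called, and their sum was 68.9 and 47.0 CPM in WT and 103 and 16.1 CPM under the SDHA-KO label. The B cell list summed to 109 to 187 CPM over the 4 sums, with 3 of 10 genes tested, 1 of them higher (Cd74, lost without SDHA-KO replicate 1, adjusted p = 0.243, and without WT replicate 1, 0.18) and 1 lower (Ighm, lost without SDHA-KO replicate 2, 0.0708). The myeloid list summed to 82.1 to 178 CPM with Lyz2 at 0, and the NK and innate lymphoid list to 96.9 to 130.0 CPM with Ncr1 at 0. The NKT-like list stood at 54.2 and 85.8 CPM in WT against 34.4 and 23.7 CPM under the label, and the erythroid list did not exceed 11.4 CPM. Beyond the counts given below without cells that held Trdc, the part of such cells in the values that follow was not tested.

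Several genes of Th17 cells rose. Of 11 list genes, 8 passed the filter, some of them only through the libraries labelled SDHA-KO. Of these 8, 7 were higher and 0 lower, with 7 higher without the cells that held Trdc and 5 with DESeq2, and 3.78% of all genes were called higher. Tmem176a and Tmem176b, membrane proteins abundant in Th17 cells, stood at 10.3 and 37.4 CPM and 13.2 and 26.3 CPM in WT against 230.0 and 183 CPM and 191 and 134 CPM in the libraries labelled SDHA-KO (3.08 ± 0.26 and 3.003 ± 0.27, adjusted p = 2.62e-10 and 7.8e-10). Rora, a transcription factor of Th17 and innate-like cells, was at 106 and 147 CPM and at 253 and 349 CPM (1.25 ± 0.16, adjusted p = 1.5e-06). Both libraries labelled SDHA-KO lay above both WT libraries for each of these 3 genes.

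The Th17 chemokine receptor Ccr6 rose from 16.1 and 8.30 CPM to 33.3 and 61.6 CPM (1.97 ± 0.38, adjusted p = 0.000489, lost without SDHA-KO replicate 2 at 0.074). The receptor chains Il1r1 and Il23r, through which IL-1 and IL-23 sustain Th17 cells, had 3 UMIs each in WT and 114 and 53 under the label, ratios of 27.3 (95% counting interval, 9.11 to 134) and 12.7 (95% counting interval, 4.11 to 63.5). The 3 list genes that did not pass the filter were the cytokines Il17a, Il17f, and Il22, each with 0 UMIs in WT. Il17a had 0 and 11 UMIs under the label, the 11 in 3 cells, Il17f had 6 and 3, and Il22 had 0 and 12.

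The IL-18 receptor rose with them. Il18r1, its ligand-binding chain, stood at 116 and 73.3 CPM in WT Tem cells and at 420.0 and 476 CPM under the SDHA-KO label (2.25 ± 0.16, adjusted p = 4.56e-12), and its partner chain Il18rap at 20.5 and 16.6 CPM and at 80.0 and 82.4 CPM (2.12 ± 0.28, adjusted p = 1.5e-06). An Il18r1 UMI was found in 29.1 and 29.1% of Tem cells in the WT libraries and 82.1 and 86.8% of those labelled SDHA-KO, against 10.5 to 20.1% of naive cells. Under the label, Il18r1 was found in 32 of 36 and 48 of 53 Tem cells without Trdc and in 23 of 31 and 31 of 38 with it.

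The Th1 list split. Of 14 genes, 12 were tested and 4 were higher, namely both IL-18 receptor chains, Runx3, and Hopx, and 1 lower, Ccl5. Over all genes tested, 3.78% were called higher and 4.06% lower. The call of Hopx was lost under 12 of 17 alternatives and that of Runx3 under 8, both with DESeq2 and without cells with Trdc among them. Leaving out either WT library, or SDHA-KO replicate 2, gave 2 lower genes. Without WT replicate 1 or SDHA-KO replicate 1, with DESeq2, or without cells with Trdc, 2 were higher. Tbx21, the Th1 lineage factor, stood at 29.3 and 41.5 CPM in WT against 57.8 and 46.4 CPM under the label (0.53 ± 0.27, adjusted p = 0.302), and Cxcr3 at the levels given above (-0.37 ± 0.17, adjusted p = 0.244). Ifng was not called (-1.11 ± 0.39, adjusted p = 0.0751). It was called higher without WT replicate 2 (1.13), which held the cell rich in Ifng, and lower when any of the other 3 libraries was left out. In the sums, Ccl5 fell by 0.74 on the log2 scale (adjusted p = 0.00133). Without SDHA-KO replicate 1 this call was lost, at a value of -0.32. The shares of Tem cells with a Ccl5 UMI went the other way. They were 18.6 and 21.5% in WT against 25.4 and 38.5% under the label. After thinning, they were 16.9 and 18.4% against 22.4 and 29.5%. The richest single cell of each library held 268 and 364 Ccl5 UMIs in WT against 137 and 219 under the label.

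Of 11 granule and killer receptor genes, 7 passed the filter, some only through the libraries labelled SDHA-KO. Of these, 4 were higher and 1 lower, with 2 higher with DESeq2, where 3.78% of all genes were called higher. Ctsw, a protease of cytotoxic lymphocytes, rose from 35.2 and 22.1 CPM to 95.6 and 99.4 CPM (1.77 ± 0.25, adjusted p = 5.6e-06). Gzmb, a granule protease, stood at 7.33 and 1.38 CPM in WT against 63.3 and 17.0 CPM, and Klrd1 at 8.79 and 11.1 CPM against 82.2 and 19.9 CPM, so that both were highest in SDHA-KO replicate 1. The calls of Klrk1, Gzmb, and Klrd1 rested on SDHA-KO replicate 1 and were lost without it (adjusted p = 0.116, 0.324, and 0.574). Nkg7 stood at 232 and 278 CPM and at 312 and 253 CPM (0.14 ± 0.14, adjusted p = 0.706), and its value changed sign, to -0.023, without SDHA-KO replicate 1.

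S100 proteins, annexins, and cytoskeletal genes were higher under the SDHA-KO label in 10 of 18 genes tested and lower in 0, with a median of 0.63. Over all genes tested, 3.78% were called higher. The count was 10 without the cells that held Trdc and 6 without WT replicate 2 or with DESeq2. S100a4 rose from 827 and 851 CPM to 2297 and 1591 CPM (1.21 ± 0.11, adjusted p = 1.56e-09), and an S100a4 UMI was found in 36.0 and 41.8% of Tem cells in the WT libraries and 85.1 and 84.6% of those labelled SDHA-KO, against 0.397 to 0.880% of naive cells. S100a6 stood at 847 and 1231 CPM and at 1869 and 1355 CPM (0.62 ± 0.12, adjusted p = 0.000617), with a narrower gap between the groups, and DESeq2 did not call it (adjusted p = 0.844). Lgals1, the β-galactoside-binding galectin 1, rose from 657 and 747 CPM to 1621 and 1384 CPM (1.09 ± 0.10, adjusted p = 1.09e-09), and Vim, which encodes the intermediate filament vimentin, from 425 and 340.4 CPM to 1044 and 773 CPM (1.24 ± 0.13, adjusted p = 1.12e-08).

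Receptors for tissue entry changed in part, where 3.78% of all genes were called higher and 4.06% lower. Of 13 chemokine receptors, 10 were tested and 3 were higher, namely Ccr2, Cxcr6, and Ccr6, and 1 lower, Cxcr5, with 2 lower when either WT library was left out. Ccr2, the receptor for monocyte chemoattractants, rose from 22.0 and 48.4 CPM to 166 and 161 CPM (2.19 ± 0.23, adjusted p = 2.61e-08), and Cxcr6, which marks tissue-resident and liver-homing T cells, from 48.4 and 87.2 CPM to 278 and 194 CPM (1.77 ± 0.20, adjusted p = 1.21e-07). In both, the libraries labelled SDHA-KO lay well above the WT libraries. Among 12 integrins and adhesion genes, 4 were higher and 1 lower (2 when WT replicate 1 or either library labelled SDHA-KO was left out), and 1 was higher without SDHA-KO replicate 1 or with DESeq2 and 2 without WT replicate 1. Cd48, a ligand of the SLAM family, rose (1.01 ± 0.12, adjusted p = 2.6e-07), whereas Itgb1, the integrin β1 chain that pairs with Itga4, fell from 655 and 621 CPM to 336 and 328 CPM (-0.95 ± 0.11, adjusted p = 1.44e-07). Itga4 and Cd44 were not called (adjusted p = 0.187 and 0.156), and neither was Ccr7 (-0.54, adjusted p = 0.27).

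Some genes linked to follicular helper cells fell. Of 10 tested, 4 were lower and 0 higher (median -0.42, beside 0.00 over all 7148 genes), where 4.06% of all genes were called lower, and the count was 5 without the cells that held Trdc and 2 without SDHA-KO replicate 2. Izumo1r, the folate receptor 4 of Tfh, regulatory, and anergic T cells, stood at 246 and 269.8 CPM in WT against 53.3 and 48.3 CPM under the SDHA-KO label (-2.35 ± 0.17, adjusted p = 1.13e-11). An Izumo1r UMI was found in 61.6 and 63.3% of Tem cells in the WT libraries and 26.9 and 19.8% of those labelled SDHA-KO, against 20.8 to 24.5% of naive cells, so the labels did not overlap in Tem cells. Cxcr5, the receptor that draws Tfh cells into B cell follicles, stood at 39.6 and 38.7 CPM and at 22.2 and 8.52 CPM (-1.39 ± 0.38, adjusted p = 0.0147), and this call was lost without SDHA-KO replicate 2 (0.267). Sh2d1a, the adaptor SAP, and Slamf6, a receptor that signals through it, also fell (-0.80 and -0.81, adjusted p = 0.000771 and 6.8e-05), and Sh2d1a was lost without the same library (0.0949). Bcl6, the Tfh lineage factor, was at 20.5 and 47.0 CPM and at 35.6 and 37.9 CPM (0.10 ± 0.31, adjusted p = 0.928).

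Of 8 inhibitory receptor and exhaustion genes, 7 were tested, 3 were lower, and 0 higher, where 4.06% of all genes were called lower. With DESeq2, 2 were lower. Tox, a factor of Tfh and exhausted cells, fell from 637 and 764 CPM to 400.0 and 294 CPM (-1.03 ± 0.13, adjusted p = 3.61e-07), and Ctla4, a brake on CD28 signaling, from 240.3 and 274 CPM to 146 and 165 CPM (-0.73 ± 0.14, adjusted p = 0.000515). Lag3, which binds MHC class II, stood at 13.2 and 65.0 CPM in WT against 7.78 and 1.89 CPM under the label (-3.06 ± 0.59, adjusted p = 0.000407), but its call rested on WT replicate 2 and was lost without it (0.704). The regulatory T cell list, apart from Ctla4, had 1 gene higher among 5 tested of 8, Il2ra, a call lost when any 1 library was left out. Among 9 costimulatory genes, Cd27, the receptor for CD70, fell from 205 and 208 CPM to 78.9 and 65.3 CPM (-1.53 ± 0.17, adjusted p = 7.23e-08), and Cd226, an adhesion receptor of T and NK cells, was higher but lost without WT replicate 1 (0.287) or SDHA-KO replicate 2 (0.146).

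The T cell receptor complex was lower in transcript level. Of 13 genes of the complex and its proximal signaling, 7 were lower and 0 higher (median -0.36), where 4.06% of all genes were called lower. With DESeq2, with total UMIs, or without cells with Trdc, 5 were lower, and the calls of Cd3e and Trbc1 were lost. Trbc1 stood at -0.13 on the log2 scale without WT replicate 2, against -0.55 with all libraries. The signaling chain Cd247 fell from 434 and 345 CPM to 212 and 224 CPM (-0.84 ± 0.13, adjusted p = 2.25e-05) and Trac from 692 and 595 CPM to 424 and 421 CPM (-0.61 ± 0.11, adjusted p = 0.000181). Cd3g (-0.55, adjusted p = 0.000421) and Trbc2 (-0.46, adjusted p = 0.000182) fell by less. The kinases Lck (-0.22, adjusted p = 0.394) and Zap70 (0.21, adjusted p = 0.657) were not called. A Trac UMI was found in 91.9 and 91.1% of Tem cells in the WT libraries and 95.5 and 98.9% of those labelled SDHA-KO, and a Trbc2 UMI in 98.5 to 98.9% in all 4 libraries.

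Cytokine receptors split, with 5 of 12 higher and 2 lower, where 3.78% of all genes were called higher and 4.06% lower. With DESeq2, 3 were higher and 1 lower. Ifngr1, the ligand-binding chain of the interferon-γ receptor, rose from 51.3 and 48.4 CPM to 269 and 230.1 CPM (2.31 ± 0.18, adjusted p = 5.76e-11). Il7r rose from 289 and 307 CPM to 393 and 517 CPM (0.61 ± 0.13, adjusted p = 0.00133), and this call was lost without SDHA-KO replicate 2 (0.185). The 2 that fell were Il6ra, the IL-6 receptor chain (-1.43 ± 0.22, adjusted p = 2.23e-05), and Il10ra, the IL-10 receptor chain (-1.64 ± 0.40, adjusted p = 0.00622).

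Among the other genes with the largest rises at a mean level of at least 20 CPM, Serpinb1a, an inhibitor of neutrophil proteases that γδ and Th17 cells also express, stood at 4.40 and 2.77 CPM in WT against 67.8 and 70.1 CPM under the label (4.22 ± 0.41, adjusted p = 5.67e-09). Actn2, an α-actinin best known from muscle, rose from 8.79 and 16.6 CPM to 146 and 142 CPM (3.47 ± 0.28, adjusted p = 5.76e-11). Acvr2a, an activin receptor, rose by 3.54, and Cpd, a carboxypeptidase, by 3.64 on the log2 scale. The interferon-induced Ifitm2 had 2 UMIs in WT and 81 under the label, a ratio of 29.1 (95% counting interval, 7.80 to 244), and Olfr60, an olfactory receptor gene, 1 and 97, a ratio of 69.7 (95% counting interval, 12.2 to 2780.4). Lilr4b, an immunoglobulin-like receptor, rose by 3.30 and Bbof1 by 3.44, and the call of Bbof1 was lost without SDHA-KO replicate 1 (2.12). Bbof1 UMIs came from few cells, namely 2 and 2 Tem cells in the WT libraries and 3 and 6 in those labelled SDHA-KO.

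The largest falls at the same level took in lineage factors, receptors, and enzymes. Zbtb16, which encodes PLZF, the lineage factor of NKT cells, stood at 24.9 and 69.2 CPM in WT against 5.56 and 4.74 CPM under the label (-3.18 ± 0.48, adjusted p = 1.5e-05), lost without WT replicate 2 (0.0883). Dapl1 stood at 52.8 and 40.1 CPM and at 11.1 and 0 CPM (-3.14 ± 0.52, adjusted p = 5.21e-05), at a low level in every Tem sum. Cd200, the ligand of an inhibitory receptor, fell from 67.4 and 76.1 CPM to 17.8 and 18.9 CPM (-1.96 ± 0.28, adjusted p = 5.18e-06). Ramp1, the coreceptor for the neuropeptide CGRP, fell from 106 and 99.6 CPM to 25.6 and 26.5 CPM (-1.98 ± 0.24, adjusted p = 2.97e-07), and Igf1r, the receptor for insulin-like growth factor 1, from a mean of 71.0 CPM to one of 19.5 CPM (-1.87 ± 0.28, adjusted p = 1.14e-05). Gpm6b (-2.07), Ephx1, an epoxide hydrolase (-1.92), and Matk, a kinase that restrains Src kinases (-1.78), complete the 10 largest falls among those called without overlap between the labels at a mean level of 20 CPM or more, and Matk was lost without WT replicate 2 (0.0859).

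Few genes of metabolism were called between the genotypes in Tem cells. Of all 7148 genes tested, 7.83% were called, so 0 or 1 call in the shorter lists is near that share. Of 8 succinate dehydrogenase subunits and assembly factors, 7 were tested and 0 were called, with Sdhb at 77.7 and 92.7 CPM and at 86.7 and 78.6 CPM (-0.06 ± 0.20, adjusted p = 0.944). Of 36 nuclear genes of complex I, 0 were called, and of 35 of complexes III to V, 1 was higher (Cox5a, lost when any 1 library was left out, highest adjusted p = 0.247). Among 15 other TCA cycle genes tested of 17, Idh3a, a subunit of isocitrate dehydrogenase, rose from 30.8 and 31.8 CPM to 66.7 and 76.7 CPM (1.19 ± 0.25, adjusted p = 0.00159), though DESeq2 did not call it. Of 19 glycolysis genes, 16 were tested, Ldha was higher and Ldhb lower, and Ldha was lost when any 1 library was left out (highest adjusted p = 0.461) and Ldhb without WT replicate 2 (0.371) or SDHA-KO replicate 1 (0.253).

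Mitochondrially encoded genes were lower in 7 of 13, with a median of -0.26, but the number was 3 without WT replicate 1, 4 without SDHA-KO replicate 2 or with DESeq2, 1 with total UMIs or without cells with Trdc, and 0 without cells with Cd8a, Cd8b1, or Trdc. In naive cells 9 of 13 were lower and 1 higher. Of 13 proliferation genes, 9 were tested and 3 were higher, with 7 higher without SDHA-KO replicate 1, 1 without SDHA-KO replicate 2, and 0 with DESeq2. Bcl2, which guards against apoptosis, was higher (0.83, adjusted p = 0.00441), lost without WT replicate 2 (0.0705) or SDHA-KO replicate 1 (0.0845). Of 13 interferon-stimulated genes, 12 were tested, 4 were higher and 1 lower (0 without WT replicate 1 or SDHA-KO replicate 2), with 1 higher without SDHA-KO replicate 1 or with DESeq2 and 2 without WT replicate 1. Of 14 immediate early genes, 12 were tested and 0 called, where 7.83% of all genes tested were called. Of 17 naive and quiescence genes, 16 were tested, Il7r and Igfbp4 were higher (1 when any 1 library was left out) and Dapl1, Foxp1, Cd27, and Btg1 lower, and 7 were lower without SDHA-KO replicate 1 and 1 with DESeq2.

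In naive cells of the same libraries, 386 of 10803 genes (3.57%) were called, 121 (1.12%) higher and 265 (2.45%) lower under the SDHA-KO label. The number was 903 without SDHA-KO replicate 1, 814 without SDHA-KO replicate 2, and 231 without WT replicate 2. The 2 comparisons share their libraries, so their values are set side by side only, and the difference of the effects was tested in 1 fit with the library as a block. That difference, Tem minus naive, was called for 256 of 10591 genes (2.42%), 137 (1.29%) positive and 119 (1.12%) negative. The number was 136 without WT replicate 1, 126 without WT replicate 2, and 407 without cells with Trdc.

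Il18r1 rose in Tem cells and fell in naive cells, where it stood at 33.1 and 43.1 CPM in WT against 18.5 and 17.6 CPM under the label (-1.09), a difference of 3.34 ± 0.22 (adjusted p = 8.88e-12). Klrd1, a chain of the CD94 and NKG2 receptors, fell in naive cells from 35.8 and 35.5 CPM to 7.54 and 4.14 CPM, a difference of 4.87 ± 0.42 from its Tem value (adjusted p = 2.12e-09), and Actn2 fell there from 13.4 and 10.2 CPM to 4.16 and 3.80 CPM (5.04 ± 0.39, adjusted p = 2.72e-10). Kcnq5, a potassium channel, went the other way, from 202 and 198 CPM to 109 and 69.1 CPM in Tem cells and from 17.1 and 20.05 CPM to 56.0 and 52.5 CPM in naive cells (-2.73 ± 0.22, adjusted p = 3.99e-10). Of these 4 differences, 0 calls were lost under the alternatives. For Ccr2 (6.41 ± 1.26, adjusted p = 0.00242) and Tbx21 (5.29 ± 1.29, adjusted p = 0.0186), naive cells held UMIs in WT alone and at most 1.30 CPM, so these fitted differences depend on the prior count and are no bounds. That of Tbx21 was lost without WT replicate 2 or either library labelled SDHA-KO (highest adjusted p = 0.301). Tox fell in Tem and rose in naive cells (0.42), a difference of -1.45 ± 0.15 (adjusted p = 1.12e-07).

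**Figure D4:**
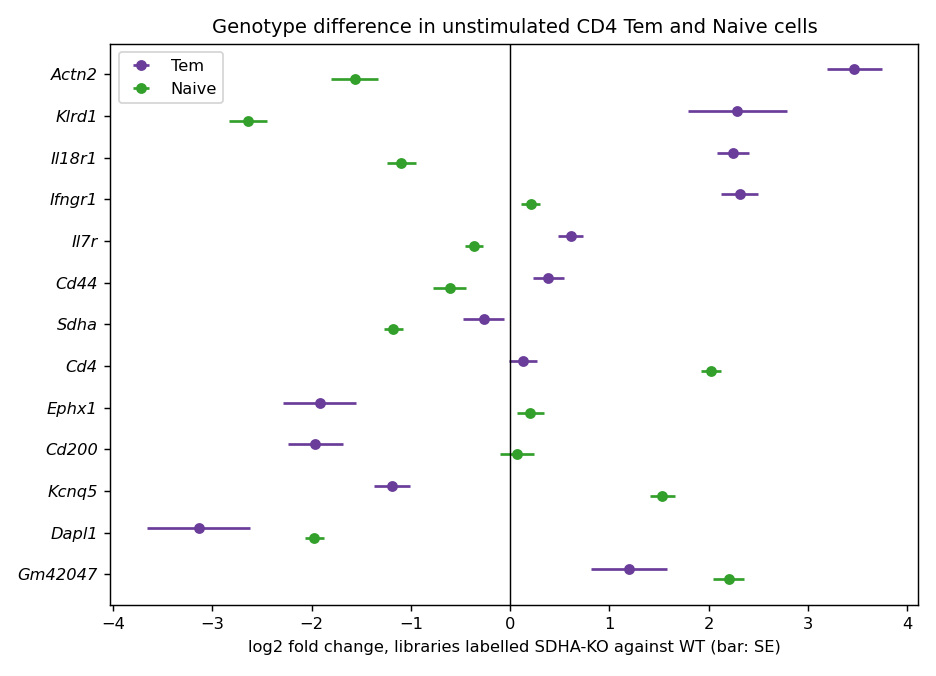
Log2 fold change of libraries labelled SDHA-KO against WT in CD4+ Tem and CD4+ naive cells for 13 genes, each with a point and an SE bar per subset from separate fits. Actn2, Klrd1, and Il18r1 lie above 0 in Tem and below it in naive cells, and Kcnq5 lies the other way round.

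An 11-gene list was drawn up from all T cells of these same libraries and is thus no independent evidence of direction. Of its 10 genes tested in Tem cells, 3 were higher (Trdc, Klrd1, and Gm42047) and 1 lower (Dapl1), beside 4 higher and 6 lower of 11 in naive cells. The call of Gm42047 was lost under 12 of 16 alternatives, DESeq2 among them. In Tem cells 1 of 10 was higher without SDHA-KO replicate 1 and 0 without cells with Trdc. Tent5a, a poly(A) polymerase gene that fell in naive cells (-1.54), was at 14.7 and 20.8 CPM and at 18.9 and 24.6 CPM in Tem cells (0.29 ± 0.40), a difference of 1.84 ± 0.39 (adjusted p = 0.0047) that was lost with DESeq2 (0.134) and without SDHA-KO replicate 2 (0.0956). Igfbp4 rose in naive cells (0.83, adjusted p = 2.11e-05), and its rise in Tem cells (1.96 ± 0.54, 7 and 39 UMIs) was lost when any 1 library was left out (highest adjusted p = 0.267). For S100a4, whose naive level was near 0, the difference between the subsets was not called (0.68 ± 0.59, adjusted p = 0.726). Izumo1r fell in naive cells too (-0.56, adjusted p = 0.00236), though by less than in Tem cells (-1.80 ± 0.20, adjusted p = 2.89e-07). Cd44 was not called in Tem cells and fell in naive cells (-0.61), a difference of 0.99 ± 0.23 (adjusted p = 0.0101) that was lost with DESeq2 and without WT replicate 1 or SDHA-KO replicate 1, with a highest adjusted p of 0.131.

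At the level of single cells, the shares of Tem cells were values without a test, since 2 libraries against 2 cannot go below p = 0.33 in a two-sided exact permutation test. Tem cells were 9.22% (95% exact binomial interval, 7.44 to 11.3) and 8.31% (6.63 to 10.2) of the CD4+ cells of the WT libraries and 6.004% (4.68 to 7.56) and 6.92% (5.61 to 8.43) of those labelled SDHA-KO. The intervals cover counting error only, and S100a4, a gene of the cluster, differed between the groups. A Cxcr6 UMI was found in 16.3 and 22.8% of Tem cells in the WT libraries and 67.2 and 56.0% of those labelled SDHA-KO, against 0.44 to 1.54% of naive cells. For Tmem176b, the shares were 2.33 and 3.80% of Tem cells in the WT libraries and 53.7 and 39.6% of those labelled SDHA-KO, against 0.753 to 0.927% of naive cells. In the WT libraries 25 and 23 Tem cells held Il18r1, of which 4 and 8 also held Cxcr6. Under the SDHA-KO label, 55 and 79 held Il18r1, of which 40 and 48 also held Cxcr6.

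**Figure D5:**
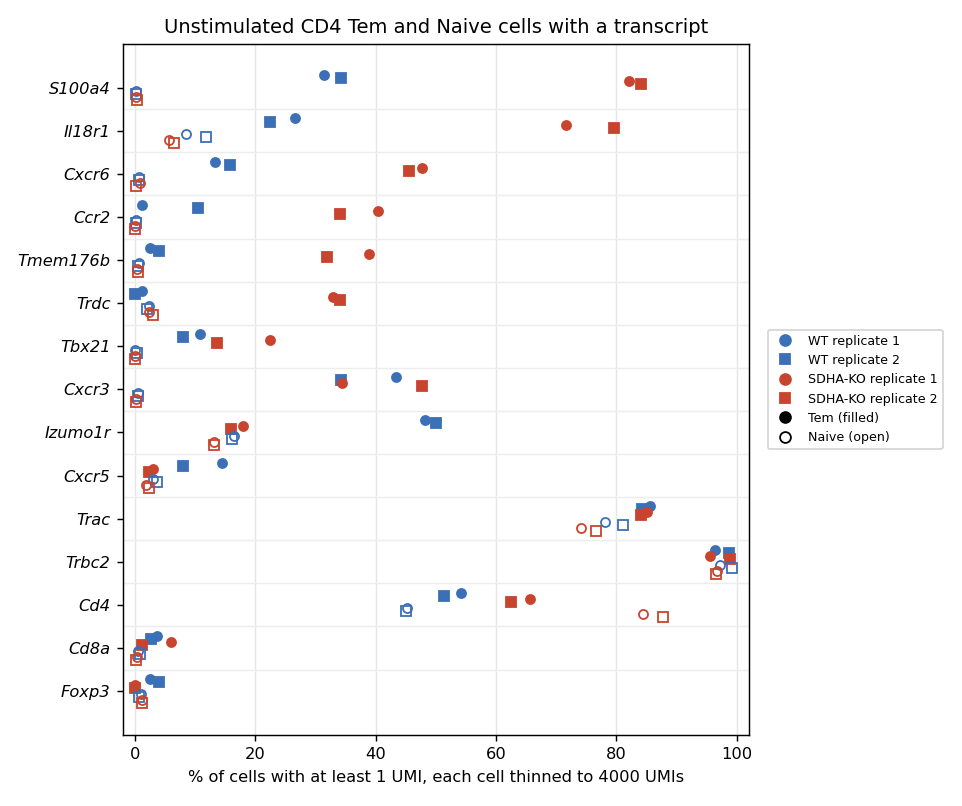
Percent of CD4+ Tem cells (filled) and naive cells (open) with at least 1 UMI of each of 15 genes, 1 point per library, with each cell thinned to 4000 UMIs, which left out 0 to 3 Tem cells and 9 to 16 naive cells per library. S100a4, Il18r1, Cxcr6, and Trdc are found in more Tem cells of the libraries labelled SDHA-KO, Izumo1r and Cxcr5 in fewer, and for Cxcr3 the labels overlap.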

How the data were processed

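Per the labels and methods, the authors demultiplexed reads with bcl2fastq, aligned and counted them with Cell Ranger against mm10 (versions not given in the sources used here), merged libraries in Seurat, removed unstimulated cells over 6000 genes, and annotated subsets. The deposited table holds counts (UMIs per gene and cell), and the deposited cell table holds the percent of mitochondrial UMIs. The authors' log10 ratio of Cd4 to Cd8a counts was not used. How doublets were treated beyond the gene limit is not given in the sources used here.

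Here, UMIs of annotated Tem and naive cells were summed per library. Genes passed edgeR's filter (minimum count 10, minimum total 15), were scaled by TMM, and were tested with edgeR 4.0.16 (R 4.3.3), checked on simulated data with known changes. Genotype fold changes come from separate fits per subset, whereas printed CPM were scaled over the 8 Tem and naive sums together. The difference of effects was fitted with each library as a block. DESeq2 1.42.0 was an alternative. Gene positions are those of GENCODE M21 for GRCm38 (mm10). Of 373 list genes, 2 were not in the matrix. Members, lists, and rules were chosen with earlier results of these data known. Genes were named by rule, as markers, list members, and the 12 highest and 8 lowest Tem to naive ratios among genes with separate values. Also named were up to 10 called genes per direction without overlap between the labels, and up to 5 per direction for the difference of effects. A few were picked after their values were seen. Sums held 645583 to 915338 UMIs, so genes with few UMIs carry wide counting intervals, which cover counting error only. A few list members are counted but not reported here by name.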

Additional observations from a re-analysis of the deposited data

Results flagged for a closer look

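For the 18 genes listed here, the difference between the effect of the SDHA-KO label in CD4+ Tem cells and in CD4+ naive cells was called. The test was edgeR's quasi-likelihood test with Benjamini-Hochberg adjustment. These genes were picked by the size of the difference or by name out of 256 called. Other genes of this text, such as some of the cytosolic ribosome, were called too. Log2 values below are Tem minus naive.

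The positive differences were those of Ccr2 (6.41, adjusted p = 0.00242), Trdc (6.33, adjusted p = 4.96e-09), Tbx21 (5.29, adjusted p = 0.0186), Actn2 (5.04, adjusted p = 2.72e-10), Klrd1 (4.87, adjusted p = 2.12e-09), Il18r1 (3.34, adjusted p = 8.88e-12), Tent5a (1.84, adjusted p = 0.0047), Cd44 (0.99, adjusted p = 0.0101), Il7r (0.97, adjusted p = 8.01e-05), and Sdha (0.91, adjusted p = 0.015). For Ccr2 and Tbx21 the naive sums labelled SDHA-KO held 0 UMIs, and for Trdc the WT Tem sums held 2, so these 3 fitted values depend on the prior count. Il7r, the receptor for IL-7, stood in naive cells at 510.0 and 499.7 CPM in WT against 394 and 393 CPM under the label, below WT, and in Tem cells at 289 and 307 CPM and at 393 and 517 CPM, above WT.

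The negative differences were those of Kcnq5 (-2.73, adjusted p = 3.99e-10), Gpm6b (-2.64, adjusted p = 0.0436), Ephx1 (-2.13, adjusted p = 0.000402), Myc (-2.08, adjusted p = 0.043), Cd200 (-2.04, adjusted p = 0.000355), Izumo1r (-1.80, adjusted p = 2.89e-07), Tox (-1.45, adjusted p = 1.12e-07), and Cd4 (-1.89, adjusted p = 1.29e-09). Myc, a growth regulator, stood in Tem cells at 8.79 and 23.5 CPM in WT against 3.33 and 5.68 CPM under the label and did not pass the filter there, and in naive cells at 24.9 and 25.8 CPM and at 30.2 and 30.6 CPM. Under 13 alternatives (11 for Trdc), the call was lost in 7 for Myc, in 5 for Gpm6b, in 4 for Tbx21, in 3 for Cd44, in 2 for Sdha, in 2 for Tent5a, and in 0 for the other 12 genes.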

How the results depend on the processing

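Between the labels in Tem cells, 560 genes were called, and 202 with DESeq2, 368 with the Tem sums of all 8 libraries, and 395 to 481 with a library left out. Of 2218 comparisons over 133 named genes, 1871 kept direction and call, 321 lost the call, 16 gained it, and 10 changed sign. Those were Cd4 (-0.076 in cells with Cd4 UMIs), Maf (0.0082 with total UMIs), and Nkg7 (-0.36 without Cd8 or Trdc cells, -0.51 without Trdc cells, -0.15 in cells with Cd4 UMIs, and -0.73 with both limits). With a library left out, Setbp1 ranged from -0.50 to 0.12, Ifng from -1.94 to 1.13, Nkg7 from -0.023 to 0.29, and Maf from -0.29 to 0.028, each changing sign without 1 library. The cause was not tested. List counts moved by over 1.5 times in 194 of 646 comparisons.

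The difference between subsets was called for 256 genes, for 131 with DESeq2, 407 without Trdc cells, and 126 to 314 with a library left out. In naive cells, 386 genes were called, with 182 for total UMIs, 646 without a filter, 154 with DESeq2, 230 with thinned sums, 250 in cells with Cd4 and without Cd8 or γδ UMIs, and 231 to 903 with a library left out. The naive alternatives and those on Trdc or Cd4 UMIs alone were chosen after seeing the data. Tem against naive gave 352 higher and 188 lower genes at 20 CPM, 299 and 48 with total UMIs, and 177 to 215 and 93 to 118 with a library left out. As shares of all T cells, Tem cells were 5.70% in WT and 5.05% under the SDHA-KO label, against 8.76% and 6.46% of CD4+ cells, which were 8.31 to 9.22% and 6.004 to 6.92% by library.

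Same-numbered replicates did not deviate together (correlation across genes -0.0171 in Tem and 0.0261 in naive cells), so they share only a number. With a replicate block, 626 genes were called in Tem cells, 764 in naive cells, and 189 for the difference. With 2 libraries per label, leaving 1 out leaves a lone sample that is assumed to vary like the others, and the low Sdha count and 3′ ends limit the check of the label in Tem cells.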

Other observations

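Genes of the cytosolic ribosome, a list made after the data were seen, were lower in Tem cells of the libraries labelled SDHA-KO. Of 81 tested, 71 were called lower and 0 higher, with a median log2 fold change of -0.41, where 4.06% of all genes were called lower. In naive cells 0 of 81 were called (median -0.05), and the difference between the subsets was called for 30, all negative. Both counts changed when single libraries were left out. In naive cells, 59 were lower and 1 higher without SDHA-KO replicate 1, and 18 higher and 6 lower without SDHA-KO replicate 2. The difference was called for 1 gene without WT replicate 1, 1 without WT replicate 2, 63 without SDHA-KO replicate 2, and 10 with a replicate block. In Tem cells, 61 to 70 were lower with a library left out. Rps27, a small subunit protein gene, stood at 8369 and 8613 CPM in WT Tem cells and at 5009.8 and 4792 CPM under the label (-0.80 ± 0.07, adjusted p = 1.08e-10 by edgeR's quasi-likelihood test with Benjamini-Hochberg adjustment). Ribosomal genes took 26.0 and 27.0% of the UMIs of WT Tem cells and 21.3 and 21.2% of those labelled SDHA-KO, beside 33.9 to 37.2% in naive cells and 30.5 to 31.7% in regulatory T cells. With total UMIs in place of TMM 48 were lower, and 69 were lower without cells with Trdc.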
